A study of Mus musculus with 5 samples.

Results

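PAZA alone was compared with untreated tumor across the whole transcriptome. PAZA is a polymer that carries 5-azacytidine, an inhibitor of DNA methyltransferases, and that forms nanoparticles without any loaded drug. Every gene symbol with a value above 0 in the PAZA or the Control library was kept, which gave 20236 genes of the 55348 symbols in the largest table of the series. The 2 libraries are part of a set of 5 with 1 library per group, the others being BMN (the PARP inhibitor talazoparib) and BMN/PAZA at a low and at a high dose. The sample labels describe LLC cells, a mouse Lewis lung carcinoma line, treated in culture for 72 h, whereas the study's methods describe tumors grown from LLC cells in C57BL/6 mice. The labels give no dose of PAZA and no treatment for Control. The unit is FPKM, a fragment count scaled to transcript length and library size, and a fold change is given as log2((PAZA + 1)/(Control + 1)). Replicates are lacking, and no test or error could be had, so a change of at least 2-fold on this scale is a description of these libraries and not of the treatment.

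5-Azacytidine is taken up by nucleoside transporters, phosphorylated by uridine-cytidine kinases and built into RNA and, after reduction of the nucleotide, into DNA. There it traps DNA methyltransferases, so that methylation marks are lost as cells divide. Genes that are known to be silenced by promoter methylation, such as germline genes and endogenous retroviruses, can then become active, and retroviral RNA can set off an interferon response.

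The libraries held tumor cells together with host cells. Keratins of skin, contractile genes of skeletal muscle and all 12 of 12 pan-leukocyte genes were above 0. Ptprc, the common leukocyte phosphatase CD45, stood at 20.1 FPKM in Control and 23.4 FPKM in PAZA. The labelled tissue is lung, but of 15 genes of lung epithelium 5 were above 0, and Napsa was highest at 1.62 FPKM in Control and 1.61 FPKM in PAZA. Napsa was also the only one of them to reach 1 FPKM. In bulk tissue, fewer cells of a type and less RNA per cell cannot be told apart. From the lowest values of long transcripts, 1 fragment on a transcript of 1 kb was worth about 0.146 FPKM in Control and 0.15 FPKM in PAZA. This corresponds to libraries of about 6.85e+06 and 6.67e+06 fragments. A transcript of 2 kb at 1 FPKM would then rest on about 14 fragments in Control, with a 95% Poisson interval of 7.65 to 23.5 that covers counting error only.

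The PAZA library also stands in a second table, beside BMN/PAZA low dose, and its values there were higher by a constant factor for most genes. Of 18320 genes above 0 in both, 351 (1.92%) lay more than 0.5% from this constant. The last gene inside the limit was 0.443% off, and the nearest outside was 0.558% off. Of the 351 genes, 255 were lower in the other table and 96 were higher, and 134 stood at 0.923 of the constant. For 166 of the 351 genes, the BMN/PAZA low dose value was 1.5 times the PAZA value used here, within 0.5%, against 68 of 17969 genes on the constant. For 26 of the 351 the values were equal within 0.5%, against 230 of 17969. In addition, 27 PAZA values and 0 Control values had more than 6 significant digits, and all 27 had at most 6 after division by 1.5. The 351 genes included 28 of 50 interferon-stimulated genes, 12 of 27 genes of nucleic acid sensing and 21 of 28 genes of RNA polymerase subunits. How these values came about was not tested. For lists with such members, the median without them or with the other table is given for the lists they affect most.

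Most genes had similar levels in PAZA and Control. Over the 20236 genes the median log2 fold change was 0.0027, with 10320 genes higher and 9916 lower in PAZA. Values of log2(FPKM + 1) had a Pearson r of 0.965 across genes, which are not independent replicates. A change of at least 2-fold upward was seen in 629 genes (3.11%) and downward in 438 genes (2.16%). Relative to coding genes of similar transcript length, these counts were 483 and 552, so the balance of higher and lower genes depended on that correction. A pseudocount of 0.1 FPKM in place of 1 FPKM gave 2972 higher and 2469 lower genes. Among the 4700 genes at or above 10 FPKM in both libraries, 63 were at least 2-fold higher and 45 at least 2-fold lower. Actb, the cytoskeletal actin often used for scaling, stood at 2034 FPKM in Control and 2093 FPKM in PAZA. Gapdh, which is usually abundant, was listed at 2.11 FPKM in Control and 1.97 FPKM in PAZA, so its listed level was of no use as a reference.

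**Figure D1:**
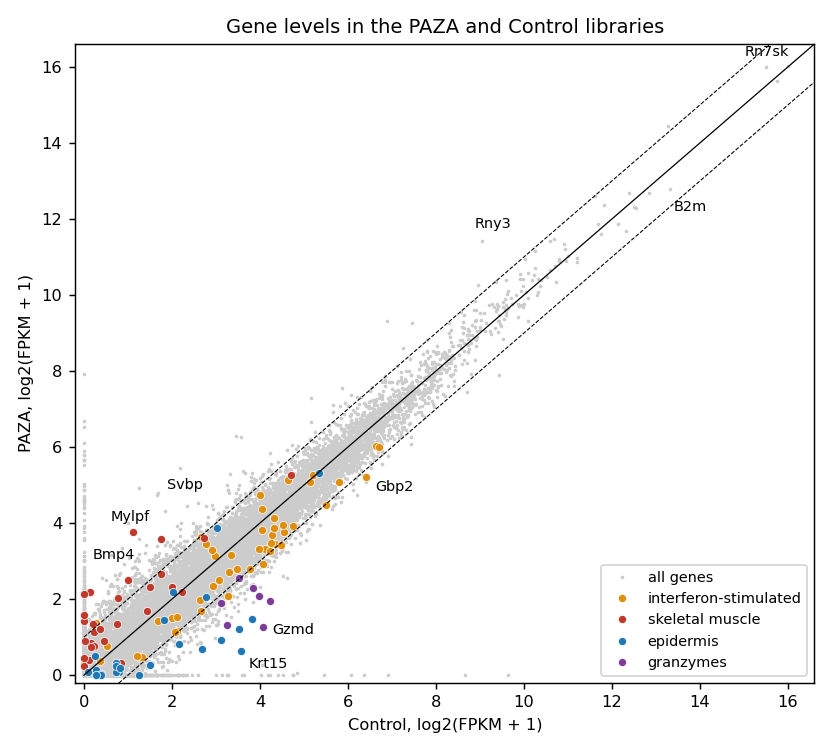
Level of each gene in Control (horizontal axis) and PAZA (vertical axis), both as log2(FPKM + 1). The solid line marks equal levels and the dashed lines 2-fold differences. All 7 granzymes and 20 of 24 epidermal genes lie below the solid line, and 26 of 28 muscle genes above it.

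DNA methylation machinery was somewhat lower in PAZA. Of 19 listed writers, readers and erasers of DNA methylation, 5 were higher and 14 lower. The median log2 fold change was -0.35 against 0.0027 over all genes. Dnmt1, the maintenance methyltransferase that azacytidine traps, was 84.8 FPKM in Control and 56.2 FPKM in PAZA, a log2 fold change of -0.58. Mbd3, a subunit of the NuRD complex, showed the largest difference, from 11.9 to 5.13 FPKM (log2 fold change -1.08). It was the only member past 2-fold. Mbd1, a reader of methylated DNA, was 7.89 FPKM in Control and 4.44 FPKM in PAZA. Uhrf1, which brings DNMT1 to newly made DNA, went the other way, at 44.4 and 50.9 FPKM. The de novo methyltransferase Dnmt3a was nearly equal at 5.03 and 5.58 FPKM, and Dnmt3b was at or below 0.0749 FPKM in both libraries. The oxidases Tet2 and Tet3 stood at 4.21 and 3.01 FPKM in Control and at 3.30 and 2.08 FPKM in PAZA, and Tet1 was not listed above 0. Measured against coding genes with transcripts of similar length, the median of the list was -0.05, because long transcripts were lower in general, as described further on.

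Enzymes that take up, activate or destroy azacytidine showed no common direction. Of 23 listed genes, 12 were higher and 11 lower, with a median of 0.05. The activating kinases Uck1 and Uck2 had log2 fold changes of -0.28 and -0.04, and the ribonucleotide reductase subunits Rrm1 and Rrm2 had 0.09 and 0.23. Slc29a1, the equilibrative nucleoside transporter ENT1, was lower, at 2.08 FPKM in Control and 0.62 FPKM in PAZA. Cda, the cytidine deaminase that breaks down azacytidine, was higher, at 1.24 FPKM in Control and 4.39 FPKM in PAZA, a log2 fold change of 1.27. Its PAZA value was off the constant, and the other table gave 4.05 FPKM after scaling. With the pseudocount of 1 FPKM, which narrows differences between low values such as those of Slc29a1, Cda was the only gene of this group past 2-fold. Without the 5 members off the constant the median was 0.05.

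Germline genes, many with promoters that are methylated in somatic cells, had no common direction. Of 52 genes on the list, 26 were above 0 in either library and 11 reached 1 FPKM, so 26 were not seen at this depth. Of those seen, 15 were higher and 11 lower, the median log2 fold change was 0.04, and 0 were past 2-fold in either direction. With the pseudocount of 1 FPKM, the 15 genes that stayed under 1 FPKM could not pass 2-fold. Rhox5, a homeobox gene on the X chromosome that many tumor lines express, was at 800 FPKM in Control and 811 FPKM in PAZA. The meiotic genes Sycp3 and Zcwpw1 were lower and stood at 0.367 and 0.847 FPKM in Control and at 0 and 0.0691 FPKM in PAZA. Xlr3a, a member of an X-linked lymphocyte-regulated cluster, was 9.48 FPKM in Control and 14.9 FPKM in PAZA, and Brdt, a testis bromodomain gene, was 0.399 and 1.12 FPKM. Differences of this size were found in both directions.

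Imprinted genes, which are expressed from the maternal or the paternal copy, were more spread. Of 28 seen, 18 were higher and 10 lower with a median of 0.18, and 4 were at least 2-fold higher. H19, a maternal noncoding RNA, was listed at 0 in Control and at 3.85 FPKM in PAZA. Cdkn1c, the cyclin-dependent kinase inhibitor p57, was 0.426 FPKM in Control and 4.68 FPKM in PAZA (log2 fold change 1.99). Rian, a noncoding RNA of the Dlk1-Dio3 region, was 1.60 and 4.91 FPKM, and Airn, the antisense RNA of Igf2r, was listed at 0 and at 1.22 FPKM. Zrsr1, a paternally expressed splicing gene, was the member past 2-fold downward, at 18.6 FPKM in Control and 7.72 FPKM in PAZA. H19 also stood at 3.10 FPKM in BMN, a library without PAZA, and at 0.187 FPKM in BMN/PAZA low dose, after scaling between tables. The level of H19 therefore did not follow the presence of PAZA across the 5 libraries. Cdkn1c was 0.272 FPKM in BMN, 0.334 FPKM in BMN/PAZA low dose and 0.824 FPKM in BMN/PAZA high dose. It was thus high in the PAZA library only, and not in the others that received PAZA.

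Among genes listed under 0.1 FPKM in Control, few reached a sizeable level in PAZA. Of 1799 such protein-coding genes, 65 were at or above 1 FPKM in PAZA and 2 at or above 5 FPKM. In the reverse direction, 35 of 1577 genes under 0.1 FPKM in PAZA reached 1 FPKM in Control. The CpG content of their promoters, as the observed over expected ratio in the RefSeq windows, had a median of 0.56 for the 45 of 65 genes with a window and 0.581 for the 25 of 35. Apart from unnamed gene models, Bmp4, a bone morphogenetic protein, was highest among the 65, at 0 in Control and 6.23 FPKM in PAZA. Krt18, a keratin of simple epithelium, was at 0 and 2.01 FPKM, although its partner Krt8 was at 63.0 and 82.7 FPKM.

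Genes of skin and skeletal muscle, tissues found around a tumor, were among those with the larger differences. Of 32 epidermal genes, 24 were above 0 and 20 of them were lower in PAZA, 8 at least 2-fold, and the median was -0.55. Over the 13 genes that reached 1 FPKM in either library the median was -1.25. Krt15, Krt14, Krt1, Dsc3, Sfn and Flg reached it in Control only, so this lower median is partly built in by the filter. Krt15, a keratin of basal cells, was 10.95 FPKM in Control and 0.543 FPKM in PAZA, a log2 fold change of -2.95 and the lowest of coding genes other than unnamed gene models. The basal keratins Krt5 and Krt14 stood at 10.4 and 7.70 FPKM in Control and at 1.33 and 0.886 FPKM in PAZA. Krt10 and Krt1, keratins of the layers above, were 13.2 and 5.41 FPKM in Control and 1.78 and 0.62 FPKM in PAZA. Basal and suprabasal keratins were thus lower together. The keratin genes lie in 2 clusters (GRCm38), with Krt15 at chr11:100131758-100135928 and Krt5 at chr15:101707070-101712898. Flg, filaggrin of the cornified layer, was 1.38 FPKM in Control and 0 in PAZA. Ccl27a, a chemokine made by keratinocytes, was 5.43 and 0.595 FPKM, and Col17a1, a collagen of the junction between epidermis and dermis, was 2.34 and 0.267 FPKM. Sbsn was an exception, at 39.4 and 38.6 FPKM, as was Lgals7 at 7.17 and 13.5 FPKM. Hair follicle genes were near absent, with 3 of 23 above 0 and 0 at 1 FPKM.

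Skeletal muscle genes were higher in PAZA. Of 30 listed genes, 28 were above 0, 26 were higher and 9 at least 2-fold, with a median log2 fold change of 0.83. Mylpf, the fast myosin light chain, was 1.16 FPKM in Control and 12.6 FPKM in PAZA (log2 fold change 2.66). Acta1, skeletal actin, was 0.109 and 3.55 FPKM, and Tnnt3, fast troponin T, was 2.37 and 10.9 FPKM. Mb, the oxygen carrier myoglobin, and Myl1, a myosin light chain, were listed at 0 in Control and at 3.38 and 2.01 FPKM in PAZA. Thick filament, thin filament and metabolic genes were higher together, and Ckm, the muscle creatine kinase, was 0.00401 and 1.68 FPKM. Tnnc1, troponin C of slow fibers, was an exception at 0.788 and 0.256 FPKM.

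These genes varied widely over all 5 libraries. After scaling between tables, Krt5 was 33.0 FPKM in BMN, 0 in BMN/PAZA low dose and 1.40 FPKM in BMN/PAZA high dose. Acta1 was 9.73 FPKM in BMN, 0.928 FPKM in BMN/PAZA low dose and 14.0 FPKM in BMN/PAZA high dose. Krt5 was thus low in each of the 3 libraries that received PAZA and high in both that did not, while muscle genes were high in BMN, PAZA and BMN/PAZA high dose. The amount of skin or muscle in each piece of tissue was not given, and its part in these differences was not tested.

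**Figure D2:**
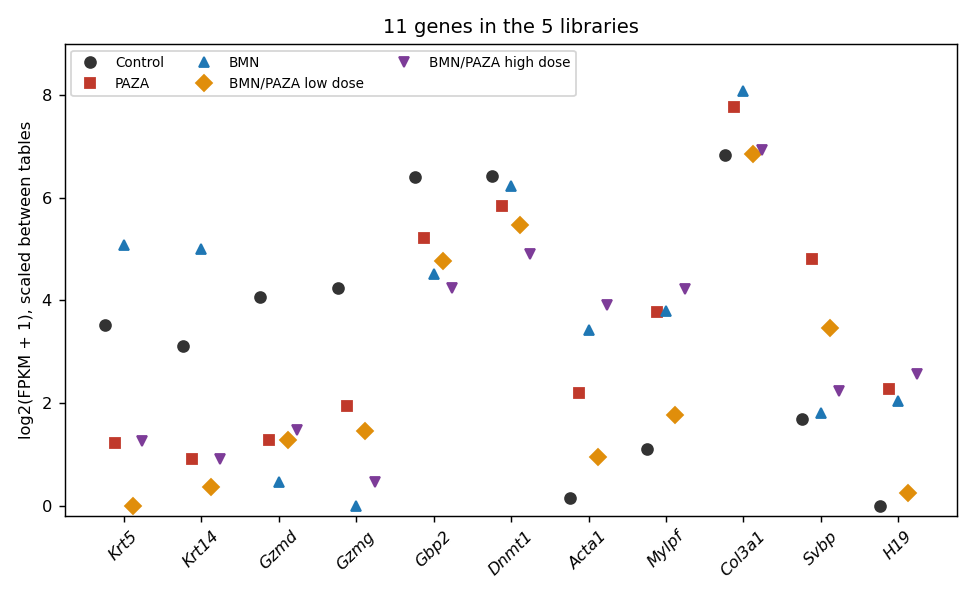
Levels of 11 genes in the 5 libraries as log2(FPKM + 1), with the BMN and BMN/PAZA values scaled by the constants between tables. Each symbol is 1 library. Krt5 and Krt14 are low in the 3 libraries with PAZA, Acta1 and Mylpf are lowest in Control, and Gzmd and Gzmg are highest in Control.

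Genes of fibroblasts and endothelium were moderately higher in PAZA. Of 24 genes of fibroblasts and matrix, 22 were higher, 2 of them at least 2-fold, and the median was 0.48. The median level of this list, after scaling between tables, was 6.89 FPKM in Control, 10.6 FPKM in PAZA and 16.2 FPKM in BMN. In BMN/PAZA it was 7.68 FPKM at the low dose and 9.39 FPKM at the high dose. Col3a1, the chain of type III collagen, was 114 FPKM in Control and 218 FPKM in PAZA, and Dcn, decorin, was 31.9 and 49.0 FPKM. Lox, the enzyme that crosslinks collagen, was 5.27 and 14.2 FPKM, and Dpt, a dermal matrix protein, was 0.445 and 2.37 FPKM. Endothelial genes were higher in 15 of 17 cases with a median of 0.38. Their median level was 0.379 FPKM in Control, 0.977 FPKM in PAZA and 0.895 FPKM in BMN. In BMN/PAZA it was 1.06 FPKM at the low dose and 1.30 FPKM at the high dose. Both lists were thus lowest in Control, and BMN, without PAZA, was also above it. Emcn, endomucin of veins and capillaries, was 4.86 and 12.6 FPKM, and Cdh5, VE-cadherin, was 3.10 and 6.56 FPKM. Of 18 basement membrane genes 7 were higher and 2 at least 2-fold lower, with a median of -0.10, and of 37 genes of the COL family 18 were higher with a median of -0.01. Both groups have long transcripts, and relative to coding genes of similar length their medians were 0.13 and 0.22. Cfd and Fabp4, genes of fat cells, were higher at 0.74 and 23.4 FPKM in Control and 5.26 and 59.8 FPKM in PAZA. Of 13 fat cell genes 9 were higher with a median of 0.16, or 0.56 over those that reached 1 FPKM in either library. Of the latter, Cfd reached it in PAZA only. Scd1, which makes monounsaturated fatty acids, was lower at 119 and 53.4 FPKM.

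Fibronectin, a matrix protein, and its receptor did not differ by 2-fold. Fn1 was 601 FPKM in Control and 528 FPKM in PAZA. Itga5, the alpha chain of that receptor, was 3.76 and 2.19 FPKM (log2 fold change -0.58), and its partner Itgb1 was 510 and 536 FPKM. Of 24 genes of integrins and fibronectin, 14 were higher and 10 lower, and 0 were past 2-fold.

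All 7 granzymes above 0 were lower in PAZA. Granzymes are serine proteases of the killing granules of cytotoxic lymphocytes. Gzmd was 15.8 FPKM in Control and 1.42 FPKM in PAZA (log2 fold change -2.79), and Gzmg was 17.9 and 2.87 FPKM (-2.29). Gzme was 8.57 and 1.52 FPKM, Gzmf was 14.7 and 3.21 FPKM, and Gzmc was 13.3 and 3.90 FPKM. These 5 genes lie next to each other with Gzmb at chr14:56117626-56262260 (GRCm38), and since they are near copies of each other the split of fragments among them is uncertain. Gzmb itself was 10.5 and 4.92 FPKM. Gzma, on chromosome 13, was 7.67 and 2.74 FPKM, and the other table gave 2.21 FPKM for PAZA. In the 3 other libraries Gzmd was between 0.383 and 1.76 FPKM, so Control was the library that stood apart. Prf1, the pore-forming perforin, was 3.54 and 1.42 FPKM. The wider list of NK and cytotoxic genes had 12 of 17 members lower and a median of -0.33, or -0.50 with the values of the other table for the 3 members off the constant. Receptors of NK cells were mixed, with Klrc1 at 2.49 and 1.08 FPKM and Klrd1 at 1.79 and 3.64 FPKM. Genes of T cells were mixed, with 13 of 22 higher, 9 lower and a median of 0.10. The costimulatory receptor Cd28 and the IL-7 receptor Il7r were 13.8 and 10.98 FPKM in Control and 6.397 and 5.47 FPKM in PAZA, while Cd3e, of the T cell receptor complex, was 1.08 and 1.34 FPKM and Cd3g 2.34 and 2.99 FPKM. The summed level of the list was 46.7 FPKM in Control and 35.2 FPKM in PAZA.

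Interferon-stimulated genes were lower in PAZA. Of 50 listed genes 37 were lower, 6 at least 2-fold, and 13 were higher, 1 of them at least 2-fold. The median was -0.60. The PAZA values of 28 of the 50 were off the constant, and for 27 of these the BMN/PAZA low dose value was 1.5 times the PAZA value used here. The 22 genes on the constant had a median of -0.50, with 14 lower and 8 higher. With the PAZA values of the other table the median of the 50 genes was -0.58, with 39 lower. The direction of the list was therefore the same in both tables, although single values differed. Cxcl9, a chemokine induced by interferon gamma, was 44.1 FPKM in Control and 21.2 FPKM in PAZA, or 5.76 FPKM by the other table. Oasl2, an antiviral protein on the constant, was 21.3 and 9.71 FPKM, and Ifi204, a DNA sensor, was 98.5 and 64.6 FPKM. Ifi27l2a and Oas1g were higher, at 5.30 and 0.21 FPKM in Control and 11.5 and 1.59 FPKM in PAZA. Ifnb1, interferon beta, was not listed above 0 in either library.

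Guanylate-binding proteins, GTPases that interferon induces and that attack intracellular microbes, formed the symbol family with the lowest median of 245 families. Of 11 family members 9 were lower, 4 of them at least 2-fold, and the median was -0.88. Gbp2 was 84.1 FPKM in Control and 36.3 FPKM in PAZA, and Gbp5 was 8.69 and 3.23 FPKM. Gbp7 was 23.1 and 10.3 FPKM, and Gbp3 was 19.2 and 9.92 FPKM. The lower members lay in both genomic clusters of the family, on chromosomes 3 and 5. The 9 members on the constant had a median of -0.66.

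The promoters of the 3 interferon-stimulated genes with the lowest fold change among those that were on the constant and held the motif are shown, because this element is what the interferon factors are known to bind. Each spans the annotated start (RefSeq, GRCm38.p6), 5′ to 3′, on the plus strand, and capitals mark the motif GAAANNGAA or its reverse complement TTCNNTTTC, with overlapping matches joined.
Gbp5, chr3:142496684-142496983: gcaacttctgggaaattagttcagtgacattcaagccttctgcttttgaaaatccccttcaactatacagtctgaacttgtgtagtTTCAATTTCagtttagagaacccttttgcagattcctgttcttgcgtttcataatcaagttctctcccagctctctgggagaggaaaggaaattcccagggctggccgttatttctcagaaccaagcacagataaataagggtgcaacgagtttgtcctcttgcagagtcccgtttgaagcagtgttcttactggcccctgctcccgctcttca
Gbp2, chr3:142620413-142620712: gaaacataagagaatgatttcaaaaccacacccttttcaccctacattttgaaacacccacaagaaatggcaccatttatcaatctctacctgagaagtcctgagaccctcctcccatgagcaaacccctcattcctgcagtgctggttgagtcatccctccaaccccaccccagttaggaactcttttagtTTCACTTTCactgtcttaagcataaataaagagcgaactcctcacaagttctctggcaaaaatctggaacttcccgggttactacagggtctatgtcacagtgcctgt
Gbp3, chr3:142559794-142560093: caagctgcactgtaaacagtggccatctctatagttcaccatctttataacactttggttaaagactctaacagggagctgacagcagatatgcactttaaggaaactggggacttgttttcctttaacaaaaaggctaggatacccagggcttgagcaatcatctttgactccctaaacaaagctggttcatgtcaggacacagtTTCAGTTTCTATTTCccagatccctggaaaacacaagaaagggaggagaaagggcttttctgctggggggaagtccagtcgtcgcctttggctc

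The motif was searched on both strands. It was present in 25 of the 36 interferon-stimulated genes that had a promoter window (69.4%), against 9.76% of the 27025 symbols with windows in the table. The 25 genes with the motif had a median log2 fold change of -0.65 with 19 lower, and the 11 without it had -0.59 with 10 lower.

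Genes of MHC class II presentation were mostly higher, while those of class I that lay on the constant had no common direction. Of 20 MHC class I presentation genes, 13 were lower and 7 higher, with a median of -0.11. Nlrc5, the transactivator of class I genes, was 35.4 FPKM in Control and 14.9 FPKM in PAZA, or 15.5 FPKM by the other table. B2m, the shared light chain, was 10237 FPKM in Control and 7026 FPKM in PAZA, or 5778 FPKM by the other table. After scaling between tables, B2m was 5628 FPKM in BMN, 10539 FPKM in BMN/PAZA low dose and 5859 FPKM in BMN/PAZA high dose. H2-K1, a class I heavy chain on the constant, was 699 and 602 FPKM, and H2-D1 was 222 and 220 FPKM. Without the genes off the constant the class I median was -0.0050. Of 9 MHC class II genes 8 were higher with a median of 0.52. With the values of the other table, 7 were higher and the median was 0.41, because Cd74, the invariant chain, was 21.3 FPKM in Control and 32.5 FPKM in PAZA as deposited but 13.4 FPKM by the other table. H2-Aa and H2-Ab1, the chains of I-A, were 12.3 and 64.5 FPKM in Control and 22.4 and 94.6 FPKM in PAZA, and H2-DMa, which helps load peptide, was 2.04 and 7.96 FPKM. Cd274, the checkpoint ligand PD-L1, was 11.1 and 6.85 FPKM, or 5.70 FPKM by the other table. It was 3.98 FPKM in BMN, 10.3 FPKM in BMN/PAZA low dose and 4.85 FPKM in BMN/PAZA high dose.

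Macrophage and neutrophil genes were mostly higher in PAZA. Of 20 macrophage genes 16 were higher and 4 lower, with a median of 0.44. Trem2, a lipid receptor, was 3.14 FPKM in Control and 7.49 FPKM in PAZA (log2 fold change 1.04). Lyz2, lysozyme, was 313 and 512 FPKM. Gpnmb, a glycoprotein of lipid-laden macrophages and of some tumor cells, went the other way at 19.5 and 7.68 FPKM. Of 20 neutrophil genes 13 were above 0, and 11 of the 13 were higher with a median of 0.65. Among them were S100a8 at 19.6 and 39.1 FPKM and Clec4d at 12.2 and 24.9 FPKM. Ly6g, Ngp, Camp, Ltf, Elane and Mpo were not listed above 0. Cxcr2 and Lcn2 were slightly lower, at 1.87 and 0.933 FPKM in Control and 1.78 and 0.759 FPKM in PAZA. With the values of the other table, 10 of 13 were higher with a median of 0.53. Of 10 monocyte genes 6 were higher with a median of 0.09, and of 12 mast cell genes 5 were higher with a median of -0.07. Relative to coding genes of similar transcript length, the medians were 0.32 for monocyte, 0.29 for macrophage, 0.46 for neutrophil and -0.20 for mast cell genes. The pan-leukocyte list had 9 of 12 genes higher with a median of 0.21, or 0.25 relative to coding genes of similar transcript length.

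Chemokines, which draw leukocytes into tissue, were mostly higher. Of 31 listed genes 21 were higher, 6 at least 2-fold, and the median was 0.53. Of these genes 6 were off the constant, and the other 25 had 17 higher and a median of 0.55. Relative to coding genes of similar transcript length the median of the 31 was 0.27. Ccl5, a T cell attractant and among the 6 past 2-fold, was 2.60 FPKM in Control and 6.99 FPKM in PAZA, a value of more than 6 digits that became 4.66 FPKM when divided by 1.5 (log2 fold change 0.65). Ccl9 was 77.1 FPKM in Control and 157 FPKM in PAZA, Ccl6 was 47.4 and 82.5 FPKM, and Ppbp, the platelet basic protein, was 6.54 and 21.1 FPKM. Cxcl14, made by fibroblasts and epithelium, was 0.752 and 5.45 FPKM. The members at least 2-fold lower were Ccl27a and Cxcl9. Ccl8 was lower as well, at 38.8 and 21.8 FPKM, and Ccl2, among the highest of the list, was 144 and 129 FPKM.

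**Figure D3:**
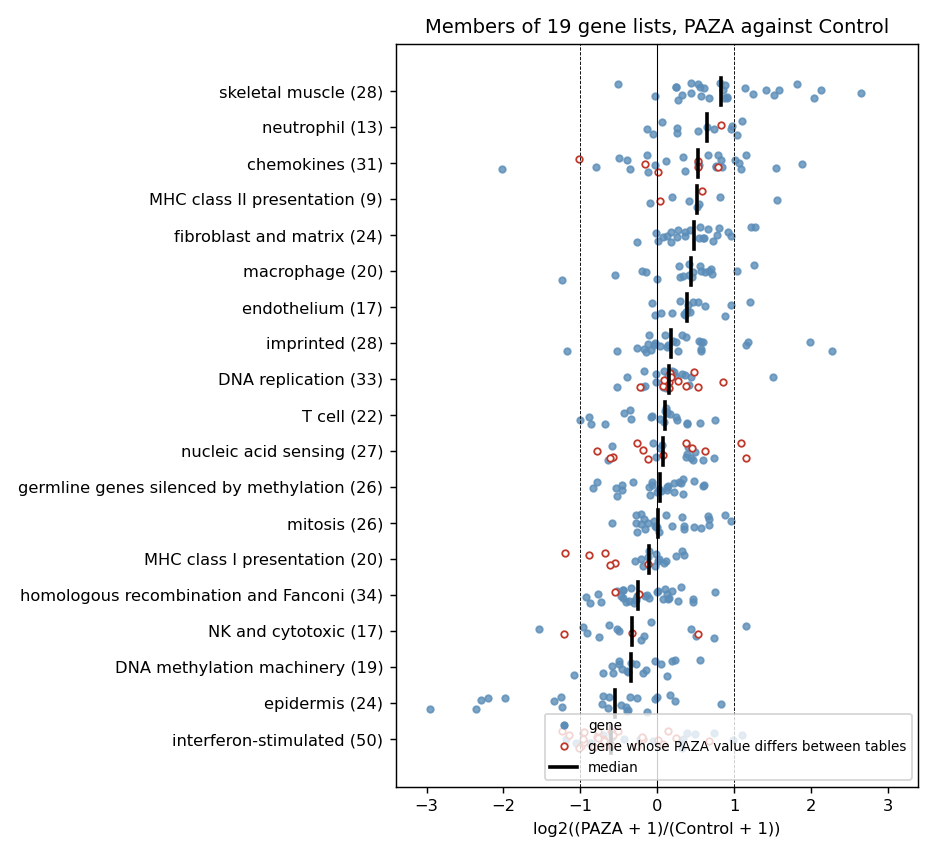
Log2 fold changes of the members of 19 gene lists, with the number of members above 0 in brackets. Black bars are medians, and open red circles are genes whose PAZA value differs between tables by more than 0.5% from the constant. Skeletal muscle has the highest median (0.83) and interferon-stimulated genes the lowest (-0.60). The 5 keratins at the far left of the epidermis list lie at or below -1.98.

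Genes that sense nucleic acid in the cytosol depended on which table was used. Of 27 genes 16 were higher and 11 lower, with a median of 0.08, but 12 were off the constant. The 15 on the constant had a median of 0.37, and all 27 with the PAZA values of the other table had -0.02. Irf3, the transcription factor downstream of cytosolic sensors, was 4.82 FPKM in Control and 11.96 FPKM in PAZA, or 9.80 FPKM by the other table. Mavs, the adaptor of RNA sensors, was 3.84 and 9.31 FPKM, or 3.80 FPKM by the other table, which left no difference. Il33, an alarmin cytokine, was 5.07 and 22.3 FPKM, or 7.83 FPKM by the other table. On the constant, Cgas, the DNA sensor, was 1.53 and 2.50 FPKM, and Tmem173, which encodes STING, was 7.01 and 6.90 FPKM.

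The 27 PAZA values with more than 6 digits included Irf3, Mavs, Il33 and subunits of RNA polymerase III. They had a median log2 fold change of 0.60 with 24 higher. Divided by 1.5 they had a median of 0.05 with 14 higher, and with the values beside BMN/PAZA low dose 0.08 with 15 higher. For 18 of the 27 the PAZA value equalled the BMN/PAZA low dose value of the other table within 0.5%. The POLR family, the subunits of RNA polymerases, had 23 of 28 members higher with a median of 0.41 as deposited. Its 7 members on the constant had 4 higher and a median of 0.13.

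Small structured RNAs had the most extreme values of the whole table. Of 68 snoRNAs, which guide chemical modification of ribosomal RNA, 49 were higher and 31 at least 2-fold, against 8 at least 2-fold lower. Their median log2 fold change was 0.80. Of 33 snRNAs, parts of the spliceosome, 26 were higher with a median of 0.997. The abundant members are the more reliable. Rn7sk, the RNA that holds the elongation factor P-TEFb inactive, was 46592 FPKM in Control and 65629 FPKM in PAZA. Rny3, a Y RNA, was 528 and 2753 FPKM (log2 fold change 2.38), and Rpph1, the RNA of ribonuclease P, was 491 and 1234 FPKM. Rmrp, the RNA of ribonuclease MRP, was 1545 and 2745 FPKM, and Snord21 was 9947 and 22347 FPKM. These RNAs carry no poly(A) tail and most are made by RNA polymerase III or cut from introns.

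The extremes among them were listed at 0 in Control or in PAZA. Snora26, Snora61, Snora43, Snora30, Snora57, Snora41, Snora62, Rnu5g, Scarna3b and Scarna8 were listed at 0 in Control and at 11.2 to 91.0 FPKM in PAZA. Snora3, Snora64, Snora47 and Scarna3a were listed at 20.1 to 42.7 FPKM in Control and at 0 in PAZA. Snora7a was above 0 in both, at 9.99 and 77.4 FPKM. Of the 95 genes with a longest transcript of up to 150 bases, 46.3% were at 0 in 1 of the libraries and 65.3% differed at least 2-fold. Of the 17019 genes longer than 1000 bases, these shares were 17.7% and 3.27%. The lowest values above 0 among the 95 short genes were 7.84 FPKM in Control and 2.14 FPKM in PAZA.

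Histone genes, whose replication-dependent transcripts also lack a poly(A) tail, were higher in PAZA. Of 65 histone genes 56 were higher, 17 at least 2-fold and 0 at least 2-fold lower, with a median of 0.66. Their transcripts are short, with a median of 481 bases, and short transcripts were higher in general. Coding genes of up to 1388 bases had a median of 0.28 with 72.4% higher. Of all 2532 genes of 300 to 1000 bases, 199 were at least 2-fold higher and 123 at least 2-fold lower. The part of length in the histone difference was not tested. H2bc18 was 466 FPKM in Control and 775 FPKM in PAZA, and H4c4 was 123 and 209 FPKM. H3c2 was 4.04 and 20.7 FPKM, and H4c12 was listed at 0 and at 7.76 FPKM. Members of this family are near copies, so the values of single genes, and counts over them, are uncertain. Genes of DNA replication, which share the timing of histones, had 25 of 33 members higher and a median of 0.15. Of these, 12 were off the constant, and the other 21 had 14 higher and a median of 0.11. Gins2, a subunit of the replicative helicase, was 4.61 and 15.004 FPKM.

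Genes were also grouped into families by the letters that begin their symbols, and families from both ends of the ranking are described. Among mitochondrial ribosomal proteins of the large subunit, 46 of 51 MRPL genes were higher with a median of 0.37. In complex I of the respiratory chain, 10 of 11 NDUFB members were higher with a median of 0.56, among them Ndufb2 at 10.8 FPKM in Control and 25.9 FPKM in PAZA. The EMC family, which inserts membrane proteins, had 9 of 9 members higher with a median of 0.31, and the proteasome PSMD family 13 of 14 with a median of 0.34. Of 50 protein-coding RPL genes 42 were higher with a median of 0.30, pseudogenes left out. On the other side, 8 of 8 KAT genes, which acetylate histones, were lower with a median of -0.52. Of 10 CHD remodelers 9 were lower with a median of -0.55, and Chd4, the ATPase of the NuRD complex, was 109 and 58.8 FPKM. Chd3 was 23.9 and 8.37 FPKM. Of 8 KMT methyltransferases 6 were lower, including Kmt5b at 56.9 and 24.8 FPKM, and of 19 KDM demethylases 17 were lower, including Kdm2a at 83.1 and 47.0 FPKM. HDAC, a family of histone deacetylases with long transcripts, had 6 of 10 members higher with a median of 0.12, and CHCHD, mitochondrial proteins with short ones, had 5 of 8 lower with a median of -0.12.

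**Figure D4:**
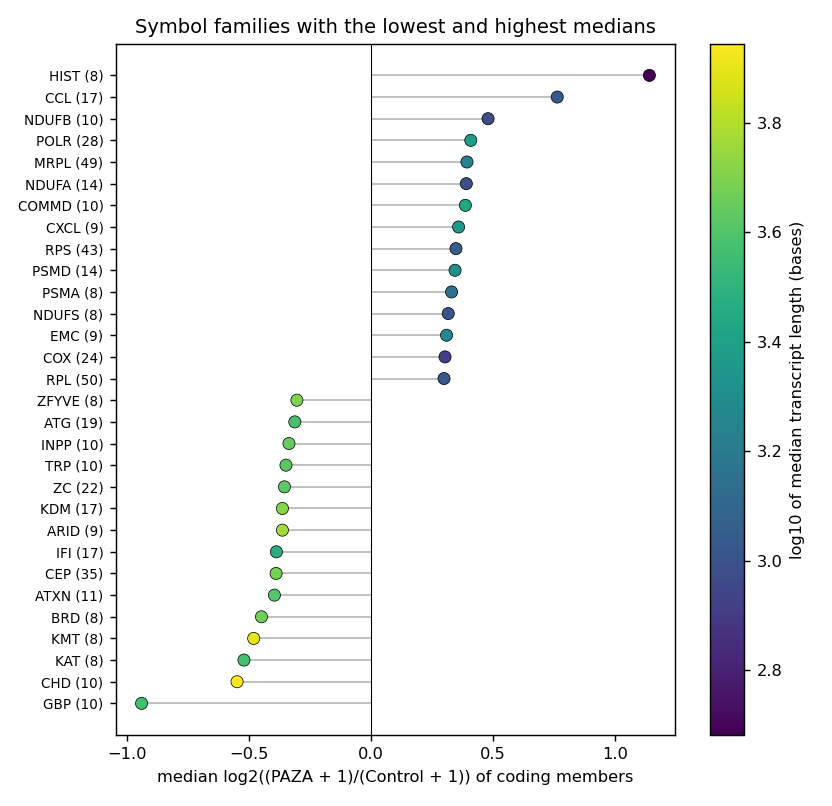
Median log2 fold change of the protein-coding members of the 15 lowest and 15 highest symbol families with at least 8 such members, with their number in brackets. Colour gives the median length of the longest annotated transcript on a log10 scale. The low families, led by GBP at -0.94, consist of longer transcripts than the high families, led by HIST at 1.14.

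Fold changes varied with transcript length. Protein-coding genes at or above 1 FPKM in either library were divided into 10 equal-sized length bins by their longest annotated transcript (GENCODE M21). In the shortest bin, up to 1388 bases, the median log2 fold change was 0.28 and 72.4% of 1058 genes were higher in PAZA. In the longest bin, from 6789 bases, the median was -0.33 and 22.1% of 1058 genes were higher. The medians fell in order over all 10 length bins. Spearman's rho between length and log2 fold change was -0.34 over 10577 genes, which share the same libraries, and -0.46 over the 4326 genes at or above 10 FPKM in both. It was -0.27 for BMN/PAZA low dose against BMN, -0.23 for BMN/PAZA high dose against BMN and 0.10 for BMN/PAZA low dose against PAZA, so it was negative in the 3 comparisons computed of a library with PAZA against one without it. The comparisons with BMN share that library. RNA integrity and fragment size were not given, and their part in the gradient was not tested. After subtraction of the median of the same length bin, the coding members of CHD had a median of -0.22, KAT -0.38, KMT -0.34, KDM -0.21, EMC 0.24, PSMD 0.22, RPL 0.11, NDUFB 0.40 and MRPL 0.28, while GBP kept -0.86 and epidermal genes -0.59.

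**Figure D5:**
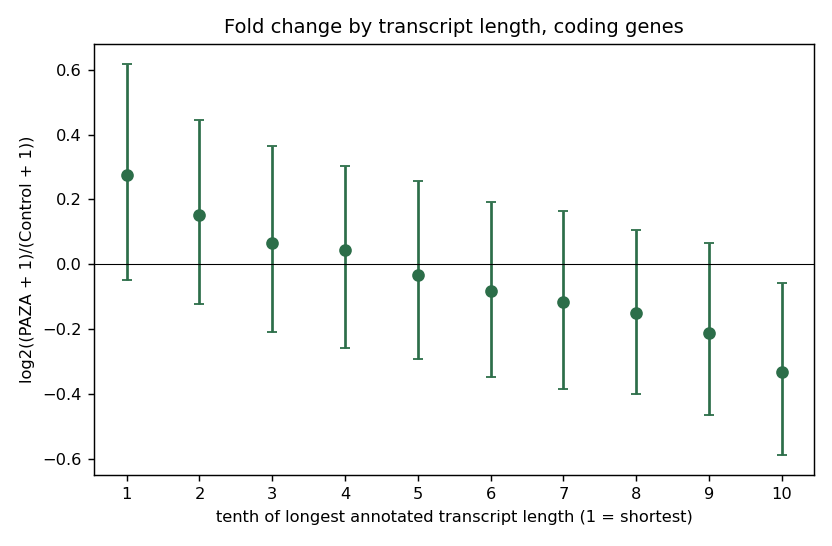
Median log2 fold change by bin of longest transcript length for protein-coding genes at or above 1 FPKM in either library. Points are medians and bars run from the lower to the upper quartile. The median goes from 0.28 in the shortest bin to -0.33 in the longest.

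Some of the largest changes were in genes not yet described. Svbp, the partner of the vasohibins that remove tyrosine from tubulin, was 2.23 FPKM in Control and 26.9 FPKM in PAZA, a log2 fold change of 3.11 and the highest of genes annotated here as protein-coding. The histone gene H4c12, whose symbol was not matched to the annotation, was higher at 3.13. Svbp was also higher in BMN/PAZA low dose, at 10.1 FPKM, than in BMN at 2.51 FPKM and BMN/PAZA high dose at 3.70 FPKM. Csn3, kappa-casein, was 4.21 and 29.1 FPKM, and Commd4, of the COMMD family of trafficking proteins, was 2.57 and 18.9 FPKM. Spsb1, an adaptor of a ubiquitin ligase, was 1.03 and 7.40 FPKM, and Fuom, fucose mutarotase, was 1.68 and 9.72 FPKM. All of these lay on the constant between tables.

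Among genes that were lower, several had long transcripts. Ncoa1, a coactivator of nuclear receptors, was 22.1 FPKM in Control and 5.10 FPKM in PAZA. Kif13a, a kinesin motor, was 13.4 and 2.78 FPKM, and Zbtb20, a transcriptional repressor, was 10.3 and 2.21 FPKM. Slc43a2, an amino acid transporter, was 9.10 and 1.89 FPKM. The transcripts of these 4 genes were at least 6866 bases long. Pet117, an assembly factor of cytochrome c oxidase, was listed at 3.98 FPKM in Control and at 0 in PAZA, and Fchsd1 was 6.91 and 0.977 FPKM. The antisense RNAs Maats1os and Rab26os went in opposite directions, at 3.49 and 0.993 FPKM in Control and at 0 and 15.2 FPKM in PAZA, and since the labels do not state strand, their fragments and those of the genes they overlap cannot be told apart.

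Genes of mitosis were balanced in number. Of 26 genes of mitosis 14 were higher and 12 lower, with a median of 0.01. Mki67, the proliferation antigen, was 84.4 FPKM in Control and 55.9 FPKM in PAZA, while Cdk1, the mitotic kinase, was 113 and 209 FPKM and Plk1 was 7.02 and 14.6 FPKM. Mki67 has a transcript of 10061 bases and thus lies in the longest bin. Cdkn1a, the cell cycle inhibitor p21, was 2.78 and 3.66 FPKM, or 2.96 FPKM by the other table. Of 34 genes of homologous recombination and the Fanconi pathway, 21 were lower and 13 higher with a median of -0.25. With the pseudocount of 1 FPKM, which narrows differences between low values, 0 were past 2-fold. Brca2 was 9.17 and 4.58 FPKM, Rad51d was 3.20 and 1.22 FPKM, and Blm, a helicase and the highest of the list, was 45.5 and 36.6 FPKM. Against coding genes of similar transcript length the median of this list was -0.10. Parp1, the target of BMN, was 14.5 and 17.7 FPKM, and Parp2 was 22.5 and 13.2 FPKM. Xist, the RNA of the inactive X chromosome, was 3.95 and 6.35 FPKM.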

How the data were processed

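Reads were mapped and quantified by the authors with HISAT2 and StringTie on GRCm38 according to the submitters' processing notes, which give no versions. The deposited tables hold 1 value per gene and library, read as FPKM from their form, and they name no unit. Of 5 tables, 4 were used and 1 (BMN/PAZA low dose with high dose) was not used here. The 21 symbols turned into numbers were kept in counts and not named. Symbols were matched to GENCODE M21 (19821 of 20236). Differences were computed as log2((PAZA + 1)/(Control + 1)), with a pseudocount of 1 FPKM and no test, because each group has 1 library.

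The gene lists (54 lists, 1228 of 1231 entries matched) and members were chosen with earlier results of these data known. Families share the letters before the first digit or hyphen, with at least 8 members above 0 and 5 at 1 FPKM, unnamed gene models left out. Genes named in the text were the 15 highest and 15 lowest of the table, the 10 highest and 10 lowest above 1 FPKM in both, the leading members of each list by change and by level, and a fixed set around methylation and azacytidine. Others were chosen after their values were seen, among them Krt18, Sbsn, Lgals7, Col17a1, Cd3e, Cd3g, H2-D1, Parp1, Parp2, Rpph1, Rmrp, Snord21, Tmem173, Klrd1, Klrc1, Itgb1, Cfd, Fabp4 and Scd1. The values of other libraries were divided by the median ratio between tables. Steps were tested on data simulated from the Control library with counting error only, which holds no spread between tumors. Python 3.11.15, pandas 2.3.3 and scipy 1.17.1 were used. Results for some genes are not reported here.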

Additional observations from a re-analysis of the deposited data

How the results depend on the processing

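With a pseudocount of 0.1 FPKM, 2972 genes were at least 2-fold higher and 2469 lower in PAZA, since low values then count more. The medians of 13 lists moved without a change of sign, among them skeletal muscle to 1.84, epidermis to -1.79, endothelium to 1.06, imprinted genes to 0.70 and NK and cytotoxic genes to -0.67, and 28 of 66 named genes moved. The other 6 settings left both counts within 1.5 times of 629 and 438, and the median over all genes within 0.1 of its value. The median of the epithelial state list changed from -0.17 to 0.13 when only genes at or above 1 FPKM were kept, as fewer genes then enter. The same setting moved 5 other medians: adipocyte to 0.56, epidermis to -1.25, smooth muscle and pericyte to 0.45, imprinted genes to 0.41, and Wnt, Notch and Hedgehog targets from 0.05 to -0.24, a change of sign. Il33 had a log2 fold change of 1.94, and of 0.54 with the PAZA values of the other table. Relative to transcript length the medians of 5 lists moved: DNA methylation machinery to -0.05, chemokines to 0.27, monocyte to 0.32, smooth muscle and pericyte to 0.37, and basement membrane from -0.10 to 0.13, a change of sign. The settings on transcript length and on division by 1.5 were chosen after seeing the data. No symbol was repeated in this table, so summing repeated rows changed nothing and says nothing about stability. No paired analysis was possible because each group has 1 library, and no replicate could be left out. Counting error limits genes under about 1 FPKM and transcripts under 300 bases.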

Other observations

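Clock genes were lower in PAZA in 12 of 18 cases, with a median log2 fold change of -0.29. Against coding genes of similar transcript length the median was -0.16. Bhlhe41, a repressor of the clock loop, was 33.6 FPKM in Control and 13.3 FPKM in PAZA, and Nr1d1, which encodes REV-ERB alpha, was 1.82 and 0.667 FPKM. Per2, a period gene, was higher, at 0.171 and 2.11 FPKM, as was Cry1 at 1.82 and 3.76 FPKM. Members of the same loop thus differed in direction, and the time of day of tissue collection was not given.

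Heat shock genes were mixed. Cryab and Hspb8, small heat shock proteins, were 11.8 and 12.7 FPKM in Control and 25.5 and 23.6 FPKM in PAZA. The abundant Hspa8 was 2361 and 1867 FPKM, and Hsp90ab1 was 1273.5 and 1082 FPKM. Over 16 genes the median was 0.11 with 10 higher.

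By chromosome, the medians of coding genes at or above 1 FPKM lay between -0.16 on the mitochondrial genome (13 genes) and -0.01 on chromosome 16 (339 genes). Coding genes whose promoters had an observed over expected CpG ratio of up to 0.25 had a median of 0.02 (494 genes) and those above 1 had -0.13 (1343 genes). The latter also had longer transcripts, with a median of 3800 bases against 2580.5, and the part of length in this difference was not tested.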
